A study of Mus musculus with 4 samples.

Results

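A set of 10 genes of lipid transport and storage was followed through the immune cells of the newborn mouse heart: the apolipoprotein genes Apoe, Apoc1 and Apoc2, the lipase gene Lpl, the cholesterol exporters Abca1 and Abcg1, the storage genes Plin2 and Soat1, and the lysosomal genes Npc2 and Lipa. All 10 were found by symbol among the 32285 genes of the count matrices. The mice were C57BL/6 and carried a deletion of PD1, the inhibitory receptor encoded by Pdcd1, on both alleles (PD1 -/-, called KO) or on 1 allele (PD1 +/-, called Het), so every animal lacked at least 1 copy and no wild-type library was used here. Mice had a myocardial infarction (MI) or a sham operation at postnatal day 2, and hearts without atria were taken 7 days later. Live CD45+ cells were sorted from the digested tissue and sequenced as 3' single-cell libraries, 1 library each of PD1 -/- after MI (KO_MI), PD1 +/- after MI (Het_MI), PD1 -/- after sham surgery (KO_sham) and PD1 +/- after sham surgery (Het_sham). The labels state neither how many animals each library pooled nor which part of Pdcd1 was deleted. With 1 library per group no difference between groups could be tested, and every interval below is a 95% interval for counting error only.

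A macrophage that engulfs dead cells takes on their cholesterol and fatty acids. Cholesteryl esters are cleaved in the lysosome by the acid lipase LIPA, NPC2 passes the freed cholesterol towards the membrane, and the surplus is either re-esterified by SOAT1 and kept in droplets coated with PLIN2, or exported by ABCA1 and ABCG1 to acceptors that include apolipoprotein E. Lipoprotein lipase frees fatty acids from triglyceride-rich particles with APOC2 as its cofactor, while APOC1 is known as an inhibitor of lipoprotein uptake. Liver X receptors, which sense oxidised cholesterol, switch on Abca1, Abcg1, Apoe and the C apolipoproteins in macrophages.

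After filters on depth, 7104 KO_MI, 5074 Het_MI, 6407 KO_sham and 5376 Het_sham cells remained, with medians of 6559.5 to 8632 UMIs (unique molecular identifiers, 1 per captured RNA molecule). A gate on 8 macrophage markers, among them the complement genes C1qa, C1qb and C1qc, gave 2513, 1913, 2203 and 1219 macrophages in KO_MI, Het_MI, KO_sham and Het_sham, and 86.0% of them had a UMI of Ptprc, which encodes CD45. The 10 genes with the highest fold in the macrophage class held those 3 complement genes, whose place follows from the gate. The rest were Spp1, Pf4, Marco, Gpnmb, Ltc4s, Cbr2 and Cxcl10, none of them a marker of this gate. The sum of the 8 gate markers was 13080 CPM (UMIs per 1000000 UMIs of the class) in KO_MI, 12070 CPM in Het_MI, 11710 CPM in KO_sham and 12990 CPM in Het_sham. Droplets with markers of a second lineage, or of a second myeloid class such as macrophage with monocyte, were left out. These held 31.6% of KO_MI, 26.8% of Het_MI, 25.5% of KO_sham and 27.8% of Het_sham cells. Pdcd1 had 434 UMIs in KO_MI, 125 in Het_MI, 73 in KO_sham and 61 in Het_sham, so both libraries labelled KO held Pdcd1 RNA, and T cells held 36.8, 33.3, 34.2 and 4.80 CPM of it. With the deleted stretch unknown, 3' counts do not check the genotype. None of the 2513 KO_MI macrophages had a UMI of 4 Y-linked genes, which allows a share of up to 0.119%, against 1184 of 1913 in Het_MI, 1117 of 2203 in KO_sham and 546 of 1219 in Het_sham. Xist stood at 1118 CPM in KO_MI and at 250 to 442 CPM in the other 3 libraries. The labels do not give the sex of the animals. In the KO_MI comparisons sex cannot be told apart from genotype or operation. The cells that hold Xist but no Y-linked UMI were therefore also analysed alone, as an alternative. Pairs of libraries shared 47 cell barcodes in all.

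The name of the gene group held for only part of it. Among 6 large classes, Apoe, Lpl and Abca1 were highest in macrophages, whereas the other members were as high or higher in monocytes. The 6 large classes had at least 50 cells in every library, and the order below uses the mean of the 4 libraries. Apoe averaged 16360 CPM in macrophages, with a range of 13060 to 19700 CPM that did not touch that of any other class, and 2295 CPM in classical monocytes, a 7.13-fold difference between the means. It averaged 1880 CPM in non-classical monocytes, 486 CPM in neutrophils, 322 CPM in T cells and 321 CPM in B cells. B and T cells, given here as the level that free RNA in droplets can reach, were near equal. Their median depth was 3017 to 3991 UMIs in B cells and 5126.5 to 5867 UMIs in T cells, against 8330 to 10476 UMIs in macrophages. At 2000 UMIs per cell, a UMI of Apoe was seen in 99.6% of macrophages, 35.2% of B cells and 29.1% of T cells, after leaving out 329 macrophages, 213 B cells and 190 T cells that were shallower; unthinned, the shares were 99.9%, 52.9% and 56.9%.

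Lpl averaged 308 CPM in macrophages, 108 CPM in non-classical monocytes and 82.4 CPM in classical monocytes, and stood at 3.82 to 5.01 CPM in T cells, B cells and neutrophils. The sorted cells also held 218 fibroblasts and 156 endothelial cells, which are outside the large classes ranked here. Lpl had 368 CPM in the summed counts of the fibroblasts, above the macrophage mean, and 170 CPM in those of the endothelial cells. Abca1 averaged 271 CPM in macrophages, 77.1 CPM in neutrophils, 54.4 CPM in non-classical monocytes and 32.8 CPM in classical monocytes. Neither the Lpl nor the Abca1 range over macrophage libraries overlapped that of the class next in order.

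The small apolipoproteins were highest in monocytes. Apoc1 averaged 78.8 CPM in classical monocytes, 20.2 CPM in macrophages and 16.4 CPM in non-classical monocytes, and the ranges of the last 2 classes overlapped. Apoc2 averaged 306 CPM in non-classical monocytes and 250 CPM in classical monocytes, whose ranges overlapped, against 30.5 CPM in macrophages, and it was at least 5.87-fold higher in classical monocytes than in macrophages of the same library. B cells held 0.740 CPM of Apoc1 and 0.327 CPM of Apoc2. Abcg1 was highest in non-classical monocytes with 196 CPM, 2.59-fold above neutrophils with 75.9 CPM. Its 33.6 CPM in macrophages lay next to the 37.3 CPM of B cells with overlapping ranges, and at equal depth 6.36% of macrophages and 8.18% of B cells had an Abcg1 UMI. Abcg1 thus did not set macrophages apart from B cells, and how much of either level was free RNA was not tested.

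Npc2 averaged 1362 CPM in classical monocytes, 887 CPM in macrophages and 452 CPM in non-classical monocytes. Soat1 followed the order classical monocytes (205 CPM), non-classical monocytes (156 CPM), neutrophils (144 CPM) and macrophages (85.8 CPM), and the macrophage range overlapped neither neighbour. Lipa averaged 239 CPM in non-classical monocytes and 183 CPM in macrophages, and these ranges overlapped. Plin2 did not separate the myeloid classes, with 448 CPM in neutrophils, 429 CPM in non-classical monocytes, 405 CPM in macrophages and 389 CPM in classical monocytes, all of them at least 10.3-fold over the 37.8 CPM of T cells.

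**Figure D1:**
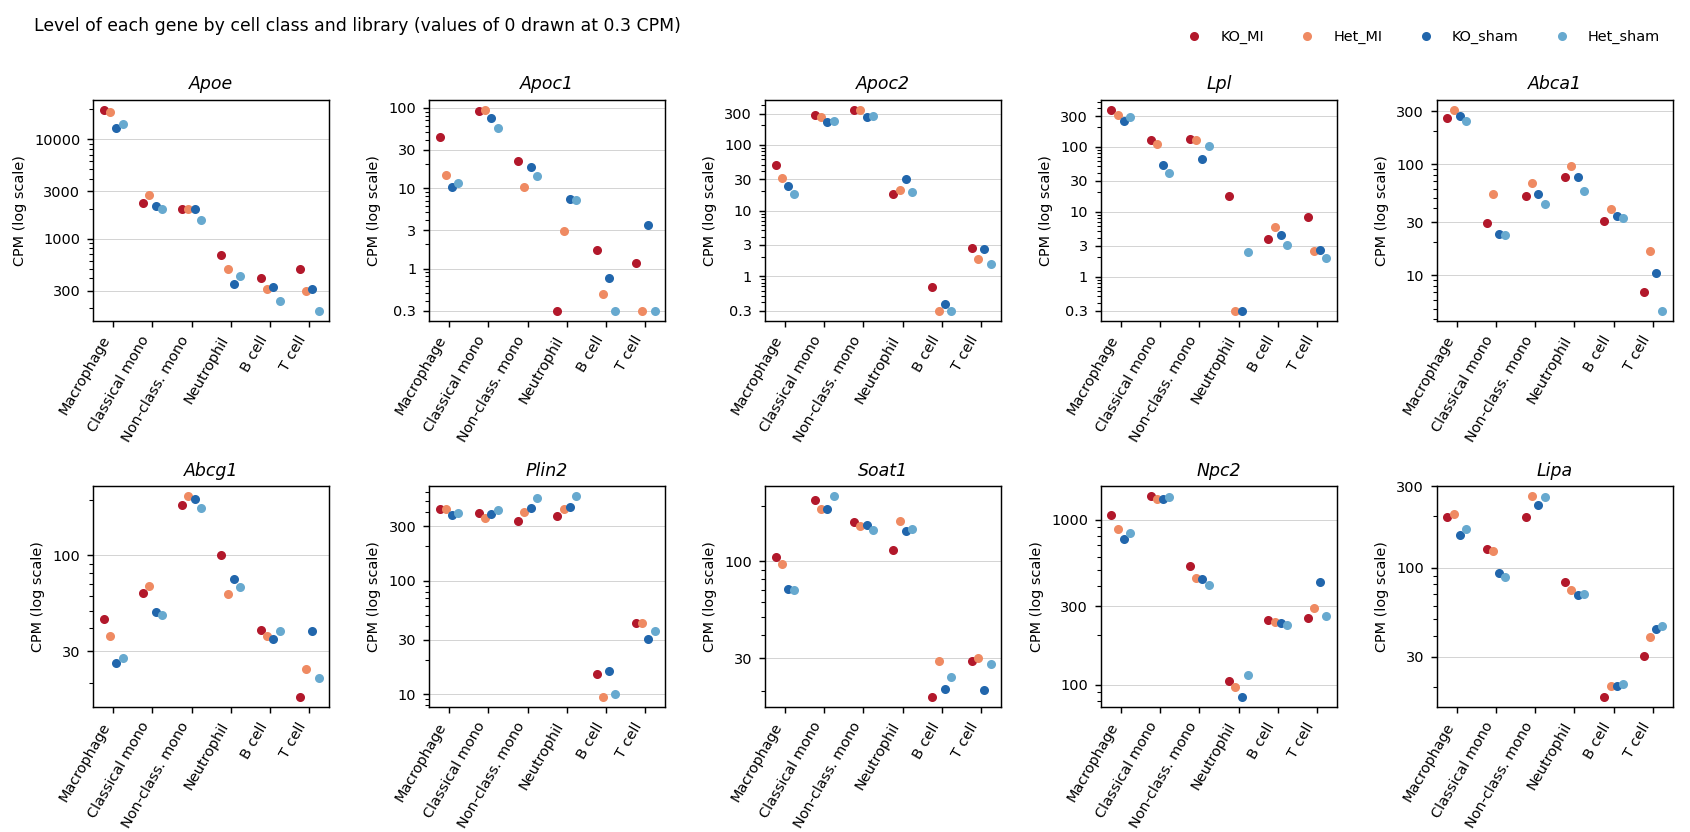
Each panel shows 1 gene, with CPM on a log axis (0 drawn at the bottom) against 6 cell classes and 1 point per library. Apoe lies between 13060 and 19700 CPM in macrophages and at or below 2742 CPM elsewhere, whereas Apoc2 and Abcg1 peak in non-classical monocytes at 269 to 341 and 181 to 210 CPM.

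Over the 24 profiles of class and library, 9776 genes were ranked by the correlation of their log2(CPM + 10) with each member, as a description without a test, since the profiles share libraries. Csf1r, the receptor for macrophage colony-stimulating factor, was closest to Lipa (r = 0.962), and Cltc, the clathrin heavy chain, was closest to Abca1 (r = 0.969). Closest to Apoe was Tmem106a (r = 0.988), to Apoc1 Ifi211 (r = 0.952), to Apoc2 Gm21188 (r = 0.965) and to Lpl Plxna4os1 (r = 0.985). Closest to Abcg1 was Stk10 (r = 0.967), to Plin2 Efhd2 (r = 0.988), to Soat1 Prdx5 (r = 0.98) and to Npc2 Dhrs1 (r = 0.954). Among the members themselves Apoe and Lpl were most alike (r = 0.95), followed by Plin2 and Soat1 (r = 0.92). The exporters Abca1 and Abcg1 were unalike (r = 0.13), and the neighbours Apoe and Apoc2 stood between (r = 0.49).

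Apoe, Apoc1 and Apoc2 lie on the minus strand of chromosome 7 within 27.61 kb (chr7:19671579-19699188, GRCm38), in the order Apoe, Apoc1, Apoc4 and Apoc2 along their direction of transcription. The annotation of that build also holds a readthrough transcript, Gm44805 at chr7:19671584-19681423, that spans Apoc4 and Apoc2 and was not among the counted genes, so reads from it cannot be told apart from those of Apoc2. Apoc4 had 4.51 CPM in KO_MI, 2.52 CPM in Het_MI, 2.19 CPM in KO_sham and 1.52 CPM in Het_sham macrophages and at most 3 UMIs in the classical and non-classical monocytes of any library, where Apoc2 was high. Promoter sequence was available in the RefSeq table (GRCm38.p6) for 7 of the 10 members. Both strands of the 300 bases around each start were searched for the sites of 2 receptor families, each built of AGGTCA repeated in the same direction: DR1 (1 free base between the copies, AGGTCA, then N, then AGGTCA), bound by PPAR with RXR, and DR4 (4 free bases, AGGTCA, then NNNN, then AGGTCA), bound by liver X receptor with RXR. The motifs share their repeat and can overlap. The 2 closest DR1 matches among the members are shown, because one lies before Apoc2, which set monocytes apart from macrophages, and the other before Plin2, which did not. Capitals mark the match:
Apoc2 (chr7:19678041-19678070, minus strand): tctcttgAGGCCAGAGGTCAaccttccgtc
Plin2 (chr4:86670262-86670291, minus strand): gctttcaGGACCCCTGACCTaagtcagaca
The Apoc2 match starts 122 bases before the start of the gene and differs from DR1 at 1 base, a closeness found in 0.554% of all 32851 promoters in the table. The Plin2 match starts 225 bases upstream, reads on the opposite strand of the sequence shown, and differs at 2 bases, as 3.86% of promoters do. The best DR1 match of Apoe differed at 3 bases, which 24.7% of promoters also reach. A match is a description of these letters and does not show binding.

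In macrophages, MI was compared with sham surgery within each genotype, and KO with Het within each operation. These 4 comparisons share libraries, so their values are given side by side and no agreement between them is counted. After MI, the median log2 ratio over the 10 members was 0.56 in KO_MI over KO_sham and 0.33 in Het_MI over Het_sham, while the medians over all measured genes were -0.13 and -0.07. In KO_MI over KO_sham 4 members were at least 1.5-fold higher (Apoc1, Apoc2, Abcg1 and Apoe), where 6.32% of 12643 genes were, and 0 were lower by as much, where 5.96% of genes were. In Het_MI over Het_sham all 10 ratios were above 0, but only Apoc2 passed 1.5-fold, where 6.76% of 12240 genes were higher and 6.62% lower. The share of all genes above 0 was not counted. In this comparison Lpl fell below 0 in 3 of 12 alternative settings, Plin2 in 2 and Npc2 in 2. Between genotypes, Apoc1 and Apoc2 passed 1.5-fold in KO_MI over Het_MI, where 4.04% of 12587 genes were higher and 4.41% lower, and the median of the members was 0.19 against -0.12 for all genes. In KO_sham over Het_sham 0 members passed 1.5-fold in either direction, where 3.40% of 12287 genes were higher and 4.60% lower, and the median of the members was -0.10. Because the medians of all genes in the KO_MI comparisons are shifted by more than 0.1, ratios below are given with their value relative to that median where the sign depends on it.

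**Figure D2:**
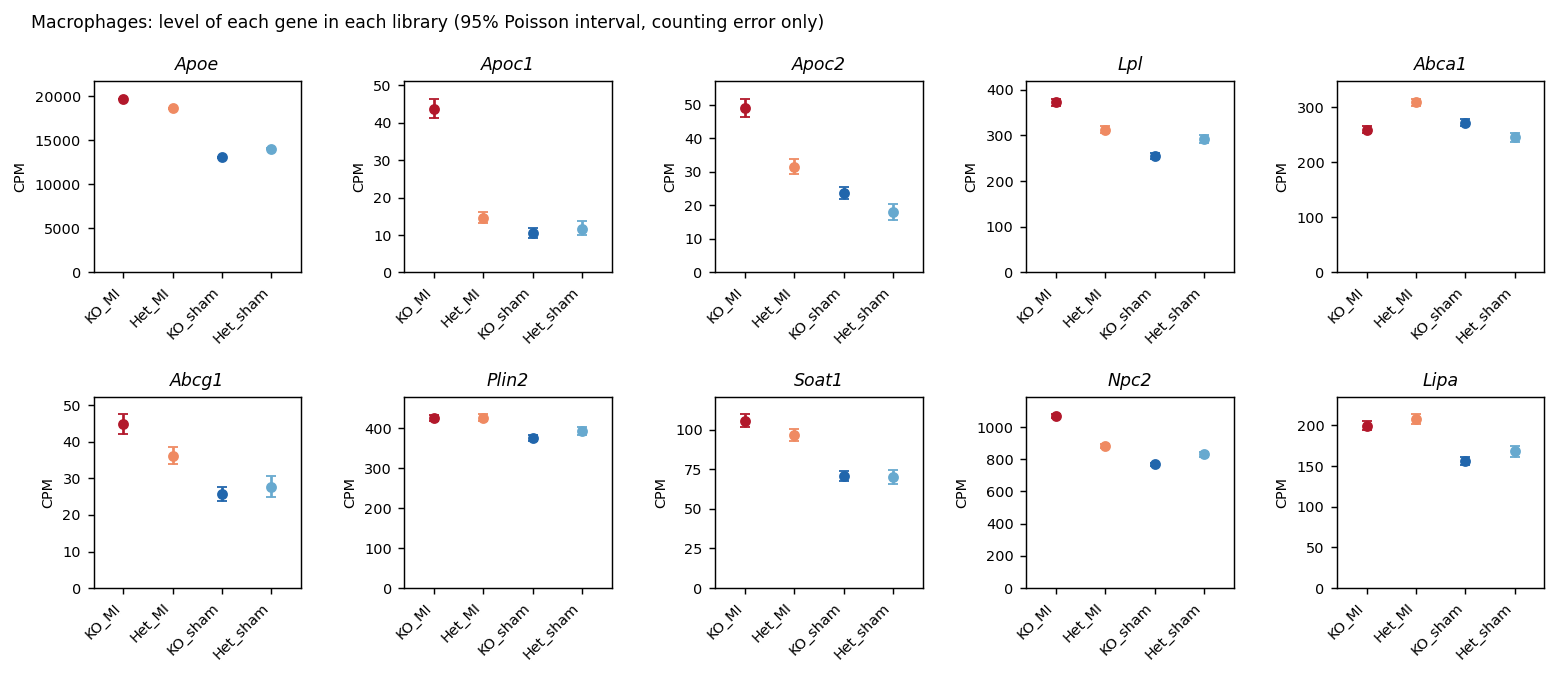
Each panel shows the CPM of 1 gene in macrophages of KO_MI, Het_MI, KO_sham and Het_sham, with 95% Poisson intervals that cover counting error only. Apoc1 stands at 43.8 CPM in KO_MI and at 10.5 to 14.6 CPM in the other 3 libraries, while Plin2 stays between 375 and 427 CPM.

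Apoe was higher after MI in both genotypes. Its level in macrophages was 19700 CPM in KO_MI, 18630 CPM in Het_MI, 13060 CPM in KO_sham and 14050 CPM in Het_sham. Both MI libraries lay above both sham libraries, by a log2 ratio of 0.59 (0.59 to 0.60) in KO and 0.41 (0.40 to 0.41) in Het. Between genotypes the Apoe ratio was 0.08 (0.08 to 0.09) after MI and -0.10 (-0.11 to -0.10) after sham surgery. The 1.5-fold call in KO is at its edge: the ratio was 0.53 with mixed droplets kept, 0.56 with clusters in place of the gate, 0.55 with cells weighted equally and 0.50 without the dividing, injury and MHC class II ranges described below.

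Apoc1 separated KO_MI from the other libraries, with 43.8 CPM (1078 UMIs) in KO_MI, 14.6 CPM (348 UMIs) in Het_MI, 10.5 CPM (282 UMIs) in KO_sham and 11.7 CPM (162 UMIs) in Het_sham. The log2 ratio was 1.58 (1.41 to 1.76) in KO_MI over Het_MI, 0.32 (0.05 to 0.60) in Het_MI over Het_sham, 2.07 (1.88 to 2.26) in KO_MI over KO_sham and -0.16 (-0.45 to 0.12) in KO_sham over Het_sham. The last ratio was 0.66 without the macrophages that held a UMI of a cardiomyocyte, fibroblast or endothelial marker and 0.29 in the cells holding Xist but no Y-linked UMI, where Het_MI over Het_sham was 1.06. The ratio of KO_MI over Het_MI was larger than that of 99.4% of measured genes. The effect of MI in KO minus that in Het was 1.75 (1.42 to 2.08) on the log2 scale, more than for any other member.

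Apoc1 was seen in few cells of every library. A UMI was found in 9.71% of KO_MI macrophages, against 7.79% in Het_MI, 6.81% in KO_sham and 5.41% in Het_sham, and the 10 cells with the most UMIs held 33.5%, 34.5%, 26.9% and 53.1% of the Apoc1 UMIs of those libraries. Marco, a scavenger receptor, was among the genes that led the macrophage class and was picked for a closer look after these values were seen. Cells with a Marco UMI were 165 of 2513 macrophages in KO_MI, 51 of 1913 in Het_MI, 63 of 2203 in KO_sham and 38 of 1219 in Het_sham. Apoc1 had 216 CPM in these cells of KO_MI, 13.2 CPM in those of Het_MI, 9.38 CPM in those of KO_sham and 34.5 CPM in those of Het_sham. In the cells without Marco it had 23.4 CPM in KO_MI, 14.7 CPM in Het_MI, 10.5 CPM in KO_sham and 10.5 CPM in Het_sham. Marco cells were also deeper, with medians of 13830 to 19039.5 UMIs against 8121 to 10325 UMIs without Marco. They made up 6.57% of KO_MI macrophages and held 52.3% of their Apoc1 UMIs. Without them the log2 ratio of Apoc1 was 0.67 in KO_MI over Het_MI and 1.15 in KO_MI over KO_sham. Both stayed past 1.5-fold. Without the macrophages that held a stromal marker UMI, as above, it was 0.95 in KO_MI over Het_MI and 0.81 in KO_MI over KO_sham.

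**Figure D3:**
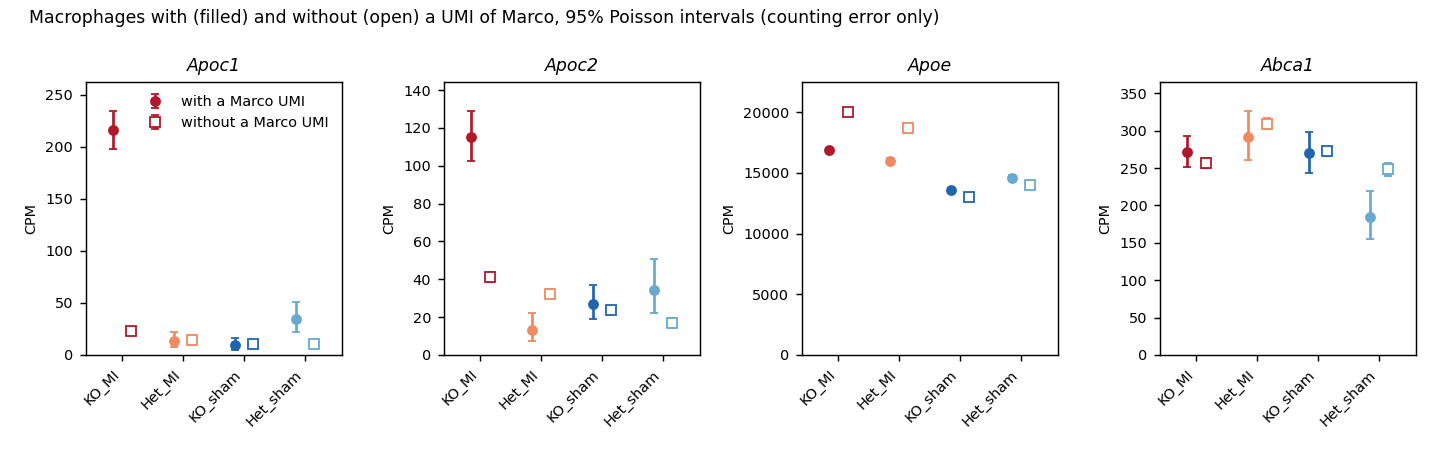
CPM of Apoc1, Apoc2, Apoe and Abca1 in macrophages with (filled) and without (open) a UMI of Marco, by library, with 95% Poisson intervals. Apoc1 reaches 216 CPM in the Marco cells of KO_MI and lies between 9.38 and 34.5 CPM in those of the other 3 libraries.

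Apoc2 was highest in KO_MI too, with 49.0 CPM in KO_MI, 31.5 CPM in Het_MI, 23.7 CPM in KO_sham and 17.9 CPM in Het_sham macrophages. Its log2 ratio was 0.64 (0.51 to 0.77) in KO_MI over Het_MI, 0.81 (0.60 to 1.03) in Het_MI over Het_sham, 1.05 (0.91 to 1.19) in KO_MI over KO_sham and 0.40 (0.19 to 0.62) in KO_sham over Het_sham. The ratio of KO_MI over Het_MI dropped to 0.35 without the Marco cells, to 0.52 without cells holding stromal markers and to 0.53 under stricter cell filters, all within 1.5-fold, and was 1.15 in the cells holding Xist but no Y-linked UMI. Monocytes hold far more Apoc2 than macrophages do, and all 8 classical monocyte markers had UMIs in the macrophage class of every library. Their sum was 265 CPM in KO_MI, 163 CPM in Het_MI, 128 CPM in KO_sham and 103 CPM in Het_sham macrophages, in the same order as Apoc2. Apoc1 did not follow this order, being lower in KO_sham than in Het_sham. The 8 non-classical monocyte markers, led by Nr4a1, summed to 348, 385, 323 and 242 CPM in the same libraries. That sum was highest in Het_MI and so did not follow Apoc2, although Apoc2 averaged highest in non-classical monocytes. Whether cells close to monocytes account for part of the Apoc1 and Apoc2 differences was not tested. In Het_MI over Het_sham, the Apoc2 ratio was 0.42 with clusters in place of the gate.

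Lpl was higher in KO_MI macrophages than in the other 3 libraries. It had 373 CPM in KO_MI, 312 CPM in Het_MI, 255 CPM in KO_sham and 292 CPM in Het_sham. The log2 ratio was 0.25 (0.21 to 0.30) in KO_MI over Het_MI, 0.10 (0.04 to 0.15) in Het_MI over Het_sham, 0.55 (0.50 to 0.59) in KO_MI over KO_sham and -0.20 (-0.25 to -0.14) in KO_sham over Het_sham. None of these 4 Lpl ratios reached 1.5-fold, although KO_MI over KO_sham passed it in 5 of 12 alternative settings. In the macrophages that held Xist but no Y-linked UMI the Lpl ratio was 0.62 in KO_MI over Het_MI, 0.75 in KO_MI over KO_sham, -0.42 in Het_MI over Het_sham and -0.56 in KO_sham over Het_sham. Lpl also depended on the macrophage states summed: without the dividing, injury and MHC class II ranges it was 0.09 in KO_MI over KO_sham and -0.22 in Het_MI over Het_sham.

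Abca1 was the member furthest below the others in KO_MI over Het_MI. Macrophages held 259 CPM in KO_MI, 309 CPM in Het_MI, 272 CPM in KO_sham and 245 CPM in Het_sham, so Het_MI was highest and Het_sham lowest. The log2 ratio was -0.25 (-0.30 to -0.21) in KO_MI over Het_MI and 0.33 (0.27 to 0.39) in Het_MI over Het_sham. In KO_MI over KO_sham it was -0.07 (-0.12 to -0.02), which is 0.06 above the median of all genes and turns to 0.03 with TMM scaling and 0.06 without the dividing, injury and MHC class II ranges. The effect of MI in KO minus that in Het was -0.41 (-0.48 to -0.33), and no other member had a value below 0. In KO_sham over Het_sham the ratio was 0.15 (0.09 to 0.21). Abca1 was not concentrated in few cells, since the 10 cells with the most UMIs held 3.27% to 4.74% of its UMIs in each library. Its promoter is shown because Abca1 is the textbook target of liver X receptor, through a DR4 site close to the start of the gene. The 250 bases upstream of the start are given 5' to 3', with the best DR4 match in capitals:
Abca1 (chr4:53159896-53160145, minus strand): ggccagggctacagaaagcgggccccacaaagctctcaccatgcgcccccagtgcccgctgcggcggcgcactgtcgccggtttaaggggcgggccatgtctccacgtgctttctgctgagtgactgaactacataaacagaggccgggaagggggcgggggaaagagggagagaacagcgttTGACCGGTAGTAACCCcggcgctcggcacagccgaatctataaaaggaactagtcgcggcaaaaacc
The match lies 67 to 52 bases before the start, reads on the opposite strand of the sequence shown and differs from DR4 at 3 bases. In all, 21.9% of promoters hold a match as close.

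Abcg1 had 44.8 CPM in KO_MI, 36.2 CPM in Het_MI, 25.8 CPM in KO_sham and 27.7 CPM in Het_sham macrophages. Both MI libraries lay above both sham libraries. The log2 ratio was 0.80 (0.66 to 0.94) in KO_MI over KO_sham, 0.39 (0.21 to 0.56) in Het_MI over Het_sham and 0.31 (0.18 to 0.44) in KO_MI over Het_MI, while the interval of KO_sham over Het_sham held 0 (-0.10, from -0.29 to 0.08) and was -0.40 in the cells holding Xist but no Y-linked UMI. B cells of the same libraries held 39.0, 36.4, 35.0 and 38.7 CPM, a level that did not follow the operation.

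The storage genes differed from each other. Soat1 had 106 CPM in KO_MI, 96.4 CPM in Het_MI, 70.9 CPM in KO_sham and 70.2 CPM in Het_sham macrophages, and its log2 ratio of MI over sham was 0.57 (0.49 to 0.66) in KO, past 1.5-fold in 5 of 12 alternative settings, and 0.46 (0.35 to 0.57) in Het. The 2 sham libraries did not differ beyond counting error (0.01, from -0.10 to 0.13). Plin2 had 425 CPM in KO_MI, 427 CPM in Het_MI, 375 CPM in KO_sham and 393 CPM in Het_sham. Its ratio was 0.18 (0.14 to 0.22) in KO_MI over KO_sham, or -0.06 without the dividing, injury and MHC class II ranges. In Het_MI over Het_sham it was 0.12 (0.07 to 0.17), or -0.12 without those ranges and -0.05 in the cells holding Xist but no Y-linked UMI. Between genotypes the Plin2 ratio was -0.01 (-0.04 to 0.03) after MI, or 0.11 with TMM scaling, and -0.07 (-0.12 to -0.02) after sham surgery, or 0.01 with TMM scaling.

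Of the lysosomal genes, Npc2 had 1067 CPM in KO_MI, 884 CPM in Het_MI, 769 CPM in KO_sham and 830 CPM in Het_sham macrophages. KO_MI was highest, with a log2 ratio of 0.27 (0.25 to 0.30) over Het_MI and 0.47 (0.45 to 0.50) over KO_sham, while Het_MI over Het_sham was 0.09 (0.06 to 0.12), turning to -0.02 without cells holding stromal marker UMIs and to -0.01 without the dividing, injury and MHC class II ranges. Lipa had 199 CPM in KO_MI, 208 CPM in Het_MI, 156 CPM in KO_sham and 168 CPM in Het_sham, so the MI libraries again lay above the sham libraries. Its ratio of MI over sham was 0.35 (0.29 to 0.41) in KO and 0.31 (0.24 to 0.38) in Het. In KO_MI over Het_MI the Lipa ratio was -0.06 (-0.12 to 0.00), or 0.06 with TMM scaling and 0.15 in the cells holding Xist but no Y-linked UMI.

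**Figure D4:**
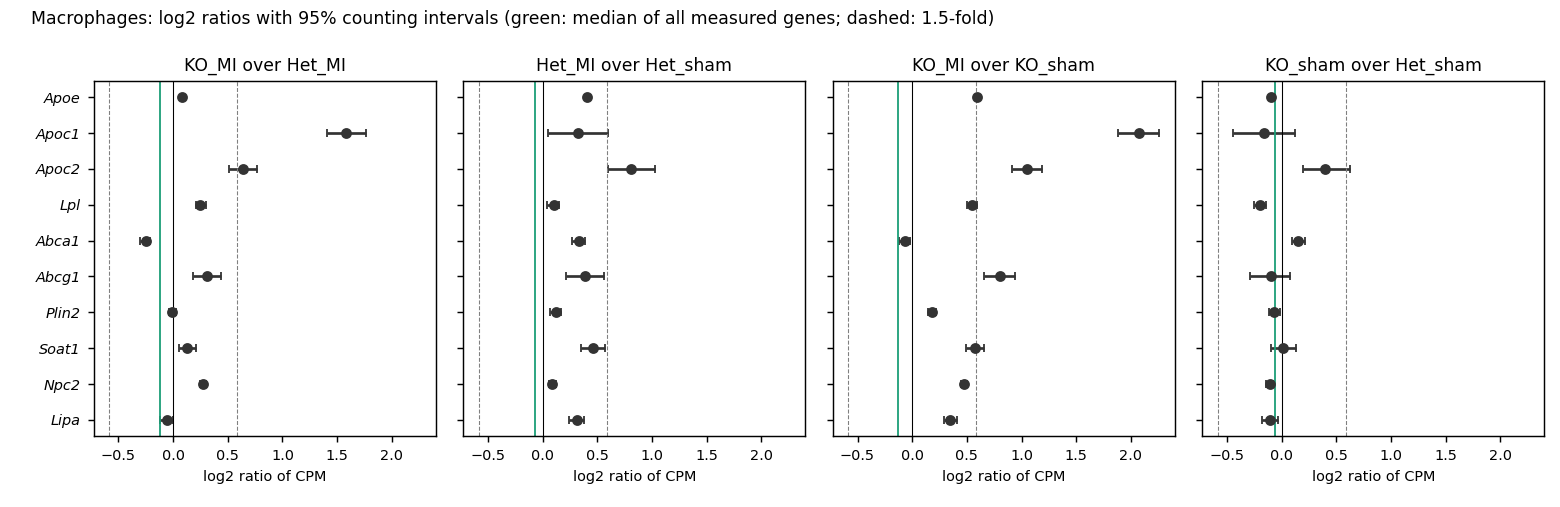
log2 ratios of the 10 genes in macrophages for the 4 comparisons, with 95% counting intervals, the median of all measured genes (green) and the 1.5-fold lines (dashed). Apoc1 stands at 1.58 and 2.07 in the 2 comparisons of KO_MI, and Abca1 is the lowest member in both, at -0.25 and -0.07 (0.03 with TMM scaling in the second).

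The 6 lists of other lipid genes place the members among their pathways, and their counts are to be read against the shares of all genes past 1.5-fold given above (6.32% higher and 5.96% lower in KO_MI over KO_sham). Of 12 genes of lipoprotein uptake, 11 were measured in macrophages, and 2 were at least 1.5-fold higher and 1 lower in KO_MI over KO_sham. Trem2, a lipid-sensing receptor, had 629 CPM in KO_MI, 574 CPM in Het_MI, 376 CPM in KO_sham and 439 CPM in Het_sham. Stab1, a scavenger receptor of resident macrophages, went the other way with 406, 572, 618 and 626 CPM in the same libraries. Of the genes named for the liver X receptor, 12 of 14 were measured, with 2 higher in KO_MI over KO_sham and 0 lower. Nr1h3, which encodes the receptor LXR alpha itself, had 8.09 CPM in KO_MI, 5.17 CPM in Het_MI, 2.82 CPM in KO_sham and 3.47 CPM in Het_sham. Pltp, a phospholipid transfer protein, had 174 CPM in KO_MI, 151 CPM in Het_MI, 106 CPM in KO_sham and 110 CPM in Het_sham. The median log2 ratio over this list was -0.06 in KO_MI over KO_sham, against -0.13 for all genes.

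Of 25 genes of lipid droplets and fatty acids, 22 were measured, and 5 were at least 1.5-fold higher and 0 lower in KO_MI over KO_sham, against 2 higher and 1 lower in Het_MI over Het_sham. Fabp5, a fatty acid binding protein, had 451 CPM in KO_MI, 421 CPM in Het_MI, 104 CPM in KO_sham and 88.5 CPM in Het_sham. Hilpda, which restrains lipolysis at droplets, had 113 CPM in KO_MI, 92.5 CPM in Het_MI, 64.2 CPM in KO_sham and 30.9 CPM in Het_sham. All 19 genes of lysosomal lipid breakdown were measured and 1 passed 1.5-fold, Psap in KO_MI over KO_sham, a share no larger than the 6.32% of all genes higher in that comparison. Psap, the precursor of the saposins, had 1742 CPM in KO_MI, 1486 CPM in Het_MI, 1017 CPM in KO_sham and 1059 CPM in Het_sham. Of 24 genes of cholesterol synthesis, 0 were higher by 1.5-fold in any of the 4 comparisons. In Het_MI over Het_sham 3 were lower, beside 6.62% of all genes, in KO_sham over Het_sham 2 were lower, beside 4.60%, and in both comparisons of KO_MI 0 were lower. One of them, the farnesyl diphosphate synthase gene Fdps, had 26.4 CPM in KO_MI, 22.0 CPM in Het_MI, 24.8 CPM in KO_sham and 37.4 CPM in Het_sham. The list of 10 other apolipoprotein genes also holds Apobr, which encodes a receptor and not an apolipoprotein. Only Apoc4 and Apobr of this list reached 30 UMIs in each comparison. Apobr had 27.2, 29.4, 35.0 and 34.5 CPM in KO_MI, Het_MI, KO_sham and Het_sham.

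Within macrophages, the members divided along known states. For each of 6 marker sets, the 10% of macrophages with the highest share of marker UMIs (785 of 7848 cells) were compared with the rest of the same library. Only the members were compared in this way, so no share of all genes stands beside the counts of members higher or lower. These are ranges cut from a score and not cell types: 393 cells exceed the top 5% and 1570 the top 20%, and the cells between lie near the cut. The injury phagocyte range, set by Spp1, Gpnmb, Lgals3, Cd63 and Cd9, held 16.4% of KO_MI, 12.1% of Het_MI, 3.81% of KO_sham and 4.76% of Het_sham macrophages. Lpl had 810 CPM in this range and 260 CPM in the rest of KO_MI, 796 and 223 CPM in Het_MI, 817 and 226 CPM in KO_sham, and 921 and 257 CPM in Het_sham. It was 3.12 to 3.61-fold higher within the range in every library, and within the range KO_MI and KO_sham lay close together, unlike in the whole class. Lipa was 1.99 to 2.68-fold, Plin2 1.73 to 2.24-fold, Soat1 1.65 to 2.21-fold, Abcg1 1.53 to 2.37-fold, Apoc2 1.35 to 2.34-fold and Npc2 1.22 to 1.57-fold higher in the range, each in 4 of 4 libraries. Abca1 was lower in 4 of 4, at 0.612 to 0.866 of the rest. Apoe differed by operation: its log2 ratio was 0.31 in KO_MI and 0.37 in Het_MI, but 0.00 in KO_sham and -0.14 in Het_sham.

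The resident range, set by Lyve1, Folr2, Cd163, F13a1, Mrc1 and Cbr2, held 7.48% of KO_MI, 12.8% of Het_MI, 10.9% of KO_sham and 9.19% of Het_sham macrophages. Abca1 was 1.43 to 1.88-fold higher in it in 4 of 4 libraries, with 462 CPM in the range and 246 CPM in the rest of KO_MI, 430 and 293 CPM in Het_MI, 389 and 260 CPM in KO_sham, and 338 and 236 CPM in Het_sham. Lpl, at 0.397 to 0.575 of the rest, and Apoc2, at 0.304 to 0.508 of the rest, were lower in 4 of 4 libraries, as were Apoc1 and Abcg1. The Apoc1 intervals held 0 in Het_MI (-0.97 to 0.15) and KO_sham (-1.19 to 0.20). In the dividing range, set by cell cycle genes, all 10 members were lower in 4 of 4 libraries, by log2 ratios between -0.10 and -2.53. The intervals held 0 for Abcg1 in KO_sham (-0.41 to 0.20) and Het_sham (-0.58 to 0.27), and for Soat1 in Het_sham (-0.47 to 0.06). Whether genes outside the members were lower in the same way was not tested. In the MHC class II range, Apoc2 and Abcg1 were higher and Apoe and Abca1 lower in 4 of 4 libraries. The Apoe log2 ratio was only -0.01 in KO_MI, which held 490 of the 785 cells of this range. In KO_sham and Het_sham the Apoc2 intervals ran from -0.35 to 0.60 and from -0.47 to 1.26, and those of Abcg1 from -0.02 to 0.82 and from -0.38 to 1.04. At the top 5% Apoc2 was lower in both, at -1.68 in KO_sham (3 UMIs) and -0.40 in Het_sham (1 UMI). In the inflammatory range, set by Il1b, Tnf and chemokine genes, all members but Lpl and Plin2 were lower in 4 of 4. Its Het_sham part was 31 cells with 1 UMI of Apoc1, 2 of Apoc2 and 4 of Abcg1. Their intervals ran from -7.16 to 0.65, -4.52 to 0.41 and -2.97 to 0.28. Outside Het_sham, intervals of this range also held 0 for Abca1 and Abcg1 in Het_MI, Abca1 and Soat1 in KO_sham, and Lipa in KO_MI.

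**Figure D5:**
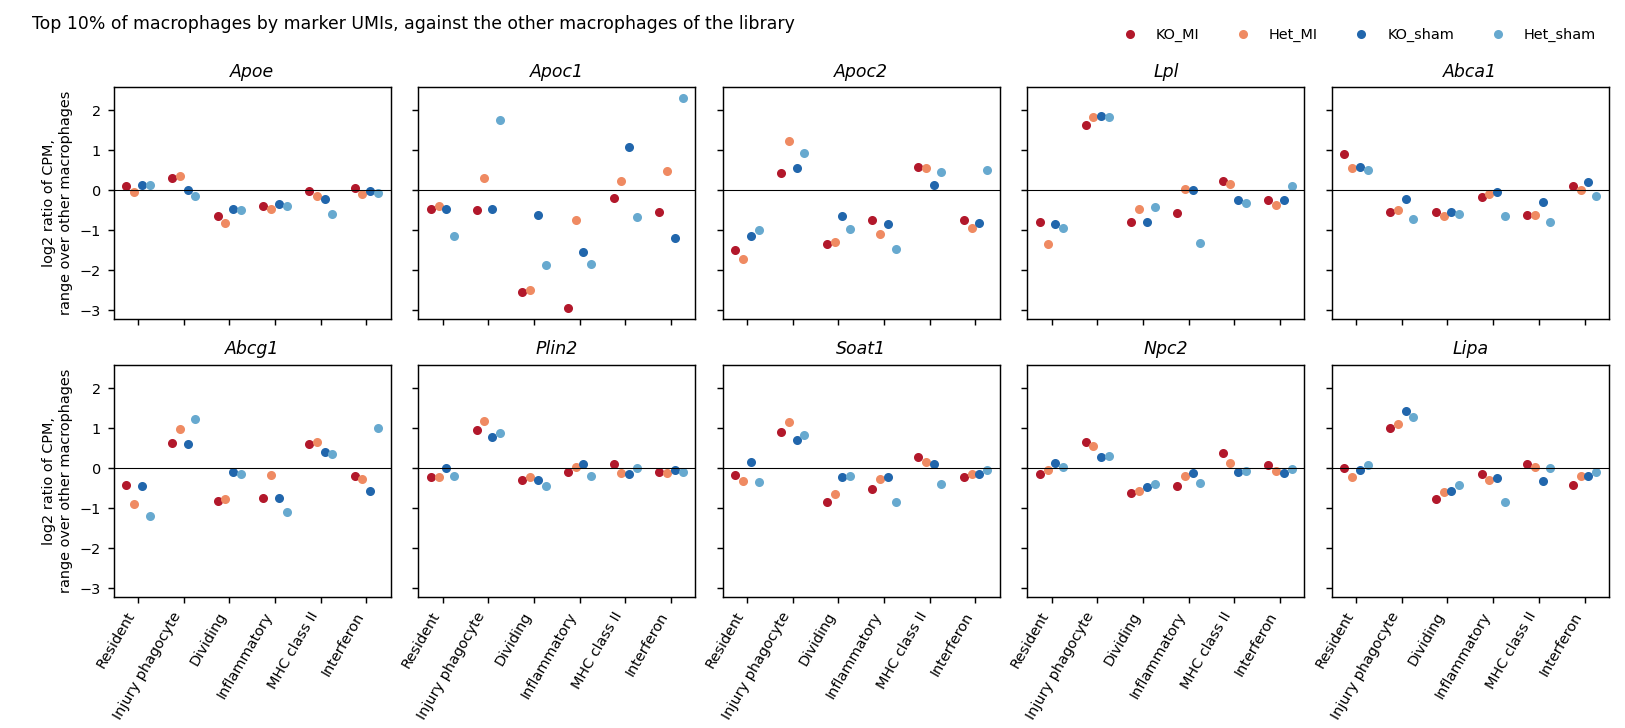
log2 ratio of each gene between the top 10% of macrophages by marker UMIs and the other macrophages of the same library, for 6 marker sets, with 1 point per library. In the injury phagocyte range Lpl lies between 1.64 and 1.85 in all 4 libraries and Abca1 between -0.71 and -0.21, whereas in the resident range Abca1 lies between 0.52 and 0.91.

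The makeup of the macrophage class moved with these groups. The 5 injury phagocyte markers summed to 4117 CPM in KO_MI, 3450 CPM in Het_MI, 1331 CPM in KO_sham and 1396 CPM in Het_sham macrophages, none of them at 0. The 6 resident markers summed to 2071, 2893, 2926 and 2870 CPM, the 6 dividing markers to 477, 556, 805 and 794 CPM, and the 4 MHC class II markers to 2993, 1079, 465 and 298 CPM in the same libraries, again with none at 0. The 6 inflammatory markers summed to 12650 CPM in KO_MI, 14900 CPM in Het_MI, 14800 CPM in KO_sham and 6388 CPM in Het_sham, which was lowest. The inflammatory range was kept in every setting, and its part in the comparisons with Het_sham was not tested. Without the dividing, injury and MHC class II ranges, the median of the members was 0.27 in KO_MI over KO_sham and 0.22 in Het_MI over Het_sham, in place of 0.56 and 0.33. More cells of a state and more RNA per cell cannot be told apart in these summed counts. Fibroblast markers summed to 15.8 to 24.8 CPM and cardiomyocyte markers to 80.8 to 104 CPM in the 4 libraries, with none at 0, and 6 erythroid markers to 217 CPM in KO_MI, 35.4 CPM in Het_MI, 9.75 CPM in KO_sham and 26.6 CPM in Het_sham, with 1 of them at 0 in Het_MI. Their part in the results was not tested.

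In classical monocytes, Lpl was higher after MI in both genotypes. Lpl had 127 CPM in KO_MI, 109 CPM in Het_MI, 53.4 CPM in KO_sham and 39.3 CPM in Het_sham (337, 161, 88 and 83 UMIs), with a log2 ratio of MI over sham of 1.25 (0.91 to 1.61) in KO and 1.48 (1.08 to 1.88) in Het. The 10 cells with the most UMIs held 48.4% to 80.1% of the Lpl UMIs per library, so few cells decide these values. Abca1 had 29.9 CPM in KO_MI, 54.4 CPM in Het_MI, 23.7 CPM in KO_sham and 23.2 CPM in Het_sham, which left Het_MI above the other 3 as in macrophages, and the ratio was -0.86 (-1.33 to -0.40) in KO_MI over Het_MI. Members past 1.5-fold numbered 1 in KO_MI over Het_MI (Abca1, lower), 3 in Het_MI over Het_sham (Lpl, Abca1 and Apoc1, higher), 1 in KO_MI over KO_sham (Lpl, higher) and 0 in KO_sham over Het_sham. Over all genes of this class, 13.2%, 13.8%, 13.1% and 10.9% passed 1.5-fold either way in these 4 comparisons.

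In non-classical monocytes, Lpl had 135 CPM in KO_MI, 128 CPM in Het_MI, 64.3 CPM in KO_sham and 105 CPM in Het_sham, and passed 1.5-fold in KO_MI over KO_sham (1.07, from 0.72 to 1.41, higher) and KO_sham over Het_sham (-0.71, from -1.01 to -0.41, lower). Abca1 passed it in Het_MI over Het_sham (0.62, from 0.11 to 1.13), and Apoc1 in KO_MI over Het_MI on 23 and 8 UMIs, with an interval that held 0. So 1 of 10 members passed in each comparison, where 14.6% of genes did in KO_MI over Het_MI, 16.0% in Het_MI over Het_sham, 15.8% in KO_MI over KO_sham and 9.0% in KO_sham over Het_sham, a share close to the background. Plin2 had 337 CPM in KO_MI, 401 CPM in Het_MI, 440 CPM in KO_sham and 539 CPM in Het_sham, which placed both MI libraries below both sham libraries.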

How the data were processed

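There were 4 libraries of 3' single-cell counts, 1 per group. Raw UMI counts per gene and barcode were deposited by the authors, with no normalization. The submitters' processing notes name Cell Ranger 6.1.1 and Seurat 4, whereas the file headers name Cell Ranger 4.0.0. The same notes name the builds mm10 and GRCm38. How barcodes were called as cells is not given. The libraries held 8379 (KO_MI), 6157 (Het_MI), 7787 (KO_sham) and 7745 (Het_sham) barcodes.

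Cells with at least 500 UMIs, at least 200 genes and at most 10% mitochondrial UMIs were kept. Each cell was gated on fixed marker lists of 17 classes. A class needed UMIs of at least 3 markers and of 30% of its list, and droplets with a second lineage at 10% of that lineage's typical level, or with a second myeloid class at 50% of the leading one, were called mixed and left out. Mixed droplets led by macrophage markers numbered 1134 in KO_MI, 697 in Het_MI, 744 in KO_sham and 536 in Het_sham. Scrublet's method called 6, 1, 0 and 139 cells by its automatic threshold in those libraries and so did not work, and an expected rate of 0.8% per 1000 barcodes was used only as an alternative.

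Counts were summed per class and library as CPM with exact Poisson intervals. Ratios have exact conditional binomial intervals, shares Clopper-Pearson intervals, and differences of ratios normal intervals on the log scale. All cover counting error only, and no test between groups was possible. Ratios past 1.5-fold are given beside the share of all genes with at least 30 UMIs in the pair. Shares of cells with a UMI were also computed after thinning to 2000 UMIs. Scripts used Python 3.11.15, scanpy 1.11.5, scipy 1.17.1 and edgeR 4.0.16 (TMM factors only) and were tested on simulated data.

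The members, marker lists and gene lists were chosen with earlier results of these data known, and the thresholds of the gate and the Marco split were set after seeing the data. All members are named. Of each list, genes past 1.5-fold could be named if the pair held at least 100 UMIs and the interval excluded a ratio of 1. The interval did not have to lie past 1.5-fold. Up to 4 per list and comparison were allowed, by UMIs, and the 2 with the most UMIs. Alternatives changed the gate, filters, doublets, scaling and the cells summed.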

Additional observations from a re-analysis of the deposited data

Results flagged for a closer look

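The members below had opposite signs under the same contrast in the 2 genotypes or after the 2 operations, with counting intervals that excluded 0 on both sides. With 1 library per group, none of these differences was tested. In macrophages, KO over Het gave a log2 ratio of Apoe of 0.08 after MI and -0.10 after sham surgery, of Lpl of 0.25 after MI and -0.20 after sham surgery, and of Npc2 of 0.27 after MI and -0.11 after sham surgery. After sham surgery the median of all genes was -0.06, so Apoe and Npc2 lay only 0.04 and 0.05 below it. Both were -0.03 with TMM scaling, and their narrow intervals reflect high UMI counts. For Abca1 in macrophages, KO over Het gave -0.25 after MI and 0.15 after sham surgery, and MI over sham gave -0.07 in KO and 0.33 in Het, where the first of these 2 turned to 0.03 with TMM scaling. In classical monocytes, KO over Het gave a log2 ratio of Apoe of -0.25 after MI and 0.12 after sham surgery.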

How the results depend on the processing

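No paired analysis was possible because each group is 1 library and the labels carry no replicate numbers to pair. Of 480 alternative values of member ratios in macrophages (40 ratios, 12 settings), 289 stayed within counting error, 191 moved, and no ratio past 1.5-fold changed sign. The median member ratio of KO_MI over Het_MI (0.19) was 0.31 with TMM and 0.31 with median-of-ratios factors, 0.28 in cells holding Xist but no Y-linked UMI, and 0.12 without the dividing, injury and MHC class II ranges. That of Het_MI over Het_sham (0.33) was 0.43 and 0.22 under the last 2 settings. That of KO_MI over KO_sham (0.56) was 0.66 with TMM, 0.68 with median-of-ratios factors, 0.70 among Xist cells, 0.27 without those ranges, and 0.41 without cells holding a stromal marker UMI. Members past 1.5-fold in KO_MI over Het_MI (2) numbered 1 with stricter cell filters, 1 without stromal marker cells, 1 without Marco cells and 1 with cells weighted equally. In Het_MI over Het_sham (1) they numbered 0 with clusters, 2 among Xist cells and 0 without the ranges. In KO_MI over KO_sham (4) they numbered 2 without the ranges and 7 with median-of-ratios factors, and in KO_sham over Het_sham (0) 1 with Scrublet calls removed and 1 without stromal marker cells. The median difference of MI effects, KO minus Het (0.21), was 0.39 among Xist cells. The median share of macrophages with a member UMI was 63.2%, or 28.6% after thinning to 2000 UMIs. Without the filter on low counts, the background past 1.5-fold either way was 28.2%, 34.7%, 30.6% and 30.9% in the 4 comparisons, in place of 8.45%, 13.4%, 12.3% and 8.0%. The causes of these shifts were not tested. Counting depth limits Apoc1, Apoc2 and Abcg1 most, with 162 to 1205 UMIs per library, and 1 library per group leaves animal-to-animal spread unknown.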
